A study of Homo sapiens with 3 samples.

Results

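Abiraterone-resistant C4-2B cells (C4-2B AbiR) were compared with C4-2B parental cells, with 1 Affymetrix HG-U133 Plus 2.0 array for each line. C4-2B is an established human castration-resistant prostate carcinoma line of the LNCaP lineage. The members of the comparison were all probe sets that carried a gene symbol in the platform annotation, which came to 42898 of the 54675 probe sets on the array. A probe set is a group of short probes read together, and 41097 of them were annotated to 1 symbol and read 19775 genes. AbiR cells had been cultured long-term in abiraterone and were maintained at 10 µM abiraterone acetate, whereas the parental line grew without it. Both grew in RPMI 1640 medium with fetal bovine serum, penicillin and streptomycin, and the parental line was passaged alongside as the control. RNA was taken from cultures kept under those conditions, so that acquired resistance and the drug present at harvest cannot be told apart. Whether AbiR is a single clone is not given in the sources used here. The only other array, of C4-2B MDVR cells kept in 20 µM enzalutamide, is given where AbiR differed from both.

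Abiraterone inhibits CYP17A1, the enzyme that turns progestogens into the precursors of androgens, and is used to treat prostate cancer. Androgens bind a nuclear receptor that switches on a programme of prostate genes, among them the kallikrein KLK3, whose product is prostate-specific antigen. The same hormone signal represses other genes, and prostate cancer cells under androgen deprivation are known to alter steroid metabolism, growth factor signalling and lineage markers.

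The values are RMA values on the log2 scale that had been centred for each probe set, so they carry no expression level and only differences between arrays have a meaning. For the same reason the prostate identity of the cells could not be checked by the level of its markers. Each gene was given the mean of its probe sets, and a difference is AbiR minus parental on the log2 scale, where 1 stands for 2-fold. With 1 array a side there was no replicate error and no test, and every count below describes these 2 arrays. Bacterial transcripts spiked into every sample gave a scale for technical noise. Over their 45 probe sets the difference had an SD of 0.10 and was at most 0.20 in size, which is 1.15-fold. Of the probe sets with a symbol, 39.1% differed by more than that. The pooled SD between probe sets of the same gene was 0.28. Both SDs are of single probe sets and give no error for the median of a list. Ribosomal RNA control probe sets were lower in AbiR in 6 of 6 cases, by −0.96 to −0.08, and their part in the results was not tested.

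Genes with an at least 2-fold higher value in AbiR numbered 212 (1.07% of all genes), and those with an at least 2-fold lower value 159 (0.804%). Counts in gene lists are read against these shares. Of these, 40 and 43 differed at least 4-fold, and 13 and 18 at least 8-fold. Over probe sets with a symbol, the quartiles of the differences were −0.16 and 0.14, the 1st percentile at −1.04 and the 99th percentile at 1.12. At least 2-fold higher were 573 of these probe sets (1.34%) and at least 2-fold lower were 479 (1.12%). Of the genes at least 2-fold higher, 112 were read by 1 probe set and 89 by several that all pointed one way, against 61 and 90 of the genes at least 2-fold lower. In the remaining 11 and 8 the probe sets pointed both ways. The strictest reading, in which every one of 2 or more probe sets was at least 2-fold higher, left 36 of 10523 genes (0.342%), and 40 genes (0.38%) in the negative direction.

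Androgen-induced genes were lower in AbiR cells. Of 45 measured members of the list, 17 were at least 2-fold lower, against 0.804% of all genes, and 0 at least 2-fold higher. Below 0 were 38 members, against 52.4% of all genes, and the median was −0.61, against −0.01 over all genes. Among the secreted kallikreins and proteases 2 of 5 were at least 2-fold lower. KLK3 stood at 3.22 on the parental array and 0.06 on the AbiR array, an 8.98-fold lower value. Its probe sets gave −4.57, −4.48 and −0.44. The neighbouring protease gene KLK2 went from 1.65 to −0.46 (4.34-fold lower), and of its 4 probe sets 2 gave −3.73 and −3.72, a further 1 gave −1.13 and the last 0.11. KLK4 and KLK15 had smaller differences of −0.72 and −0.81, and the membrane serine protease gene TMPRSS2 of −0.45.

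Transcription factors of the androgen programme were split between large and small differences. ZBTB16, a zinc finger repressor also known as PLZF, went from 3.11 on the parental array to 0.06 on the AbiR array (8.28-fold lower), and SNAI2, a repressor of epithelial genes, from 2.87 to −0.20 (8.39-fold lower). Each was read by 1 probe set. ZBTB10 was 2.04-fold lower, with 7 probe sets from −2.08 to −0.12, while CREB3L4, EAF2 and SPDEF were at −0.84, −0.64 and −0.46. FKBP5, a co-chaperone that binds steroid receptors through HSP90, went from 1.85 to −0.23, and its 3 probe sets lay close together between −2.24 and −1.97. The serum- and glucocorticoid-regulated kinase gene SGK1 was the member farthest above 0, at 0.65.

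Among the membrane proteins of the list 8 of 10 were below 0, and among its lipid and sterol genes 7 of 8, against 52.4% of all genes. Its chaperones and kinases were split, with 2 below 0 and 2 above. PMEPA1, which encodes a membrane inhibitor of TGF-beta signalling, went from 2.80 on the parental array to −0.41 on the AbiR array, 9.28-fold lower over 3 probe sets. The transporter gene SLC45A3, also called prostein, went from 3.03 to −0.12 (8.86-fold lower). ABCC4, an exporter of cyclic nucleotides and drugs, was at −2.15 and the scaffold gene HOMER2 at −1.49. In lipid metabolism the fatty acid elongase ELOVL7 went from 3.91 to −0.30 by its single probe set, 18.5-fold lower, whereas the elongase ELOVL5 was at −0.85 and the fatty acid synthase FASN at −0.12. GNMT, a methyltransferase of glycine, and UAP1, which makes the sugar donor of glycosylation, were at −1.35 and −1.43. AZGP1, a secreted glycoprotein of prostate epithelium, was 11.5-fold lower, and ELL2, an RNA polymerase elongation factor, 6.21-fold lower. For ELL2, 3 probe sets gave −3.69 to −3.26 and the remaining 1 gave −0.24. C1orf116 was at −1.73 and the centromere gene CENPN at −1.05.

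**Figure D1:**
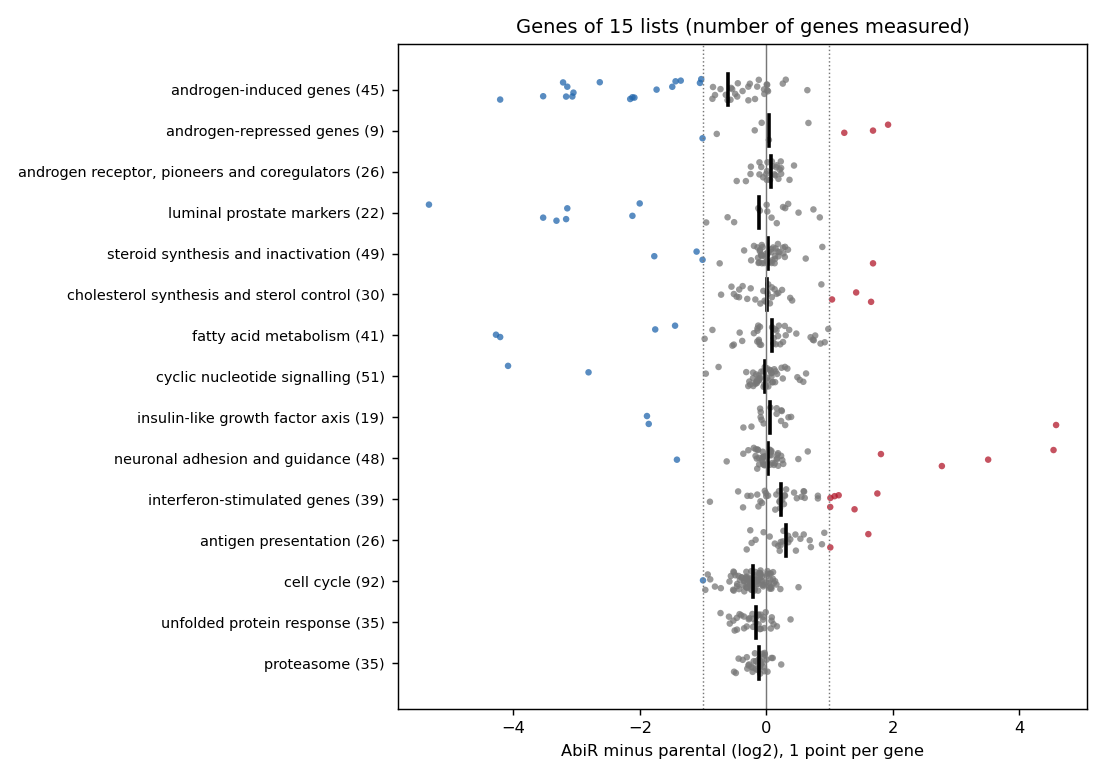
Points stand for genes of 15 lists (y axis, measured members counted in the label) at their log2 difference, AbiR minus parental (x axis, 1 array each), and black bars are list medians. Dotted lines mark 2-fold, with blue points at least 2-fold lower and red points at least 2-fold higher. Androgen-induced genes have 17 blue and 0 red points, and interferon-stimulated genes 6 red and 0 blue.

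Promoters of the androgen-induced list, of which 28 of 45 measured genes were under 2-fold, were read for the hexamer AGAACA, or TGTTCT on the other strand. This hexamer is 1 arm of the palindrome that androgen and glucocorticoid receptors bind. RefSeq promoter windows (GRCh38.p14, 250 bases before to 50 after a transcript start) were found for 34 of the 45 measured genes, in 59 windows. The hexamer was present in 6 of these windows (10.2%), in 4 of 19 windows (21.1%) of the genes at least 2-fold lower, and in 14.8% of all 35116 windows. The full palindrome, AGAACA followed by any 3 bases and TGTTCT, was in 0 of the 59 windows and in 1 of all windows. A match describes letters in the window, not a site of binding. The 4 windows of genes at least 2-fold lower that hold a hexamer are given 5′ to 3′ on the gene's strand, with the hexamer in capitals, to show where the letters fall in genes with large differences.
PMEPA1, chr20:57711423-57711722, minus strand: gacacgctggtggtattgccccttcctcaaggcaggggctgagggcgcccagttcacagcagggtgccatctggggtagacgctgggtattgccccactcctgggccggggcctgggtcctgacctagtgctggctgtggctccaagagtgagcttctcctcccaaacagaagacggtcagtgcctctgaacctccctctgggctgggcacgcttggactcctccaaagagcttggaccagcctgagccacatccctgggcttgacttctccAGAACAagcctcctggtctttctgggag
PMEPA1, chr20:57710528-57710827, minus strand: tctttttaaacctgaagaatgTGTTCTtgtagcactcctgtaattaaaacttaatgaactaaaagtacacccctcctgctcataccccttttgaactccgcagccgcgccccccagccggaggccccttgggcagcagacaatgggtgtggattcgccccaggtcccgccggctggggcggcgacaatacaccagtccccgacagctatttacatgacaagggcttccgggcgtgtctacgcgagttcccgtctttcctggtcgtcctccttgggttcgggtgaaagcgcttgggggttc
KLK3, chr19:50854665-50854964, plus strand: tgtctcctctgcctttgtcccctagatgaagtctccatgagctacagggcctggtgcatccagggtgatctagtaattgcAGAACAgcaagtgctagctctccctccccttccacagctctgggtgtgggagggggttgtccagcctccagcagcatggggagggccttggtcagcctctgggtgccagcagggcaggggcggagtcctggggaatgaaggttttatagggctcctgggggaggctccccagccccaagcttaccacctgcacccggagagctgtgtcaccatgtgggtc
FKBP5, chr6:35728534-35728833, minus strand: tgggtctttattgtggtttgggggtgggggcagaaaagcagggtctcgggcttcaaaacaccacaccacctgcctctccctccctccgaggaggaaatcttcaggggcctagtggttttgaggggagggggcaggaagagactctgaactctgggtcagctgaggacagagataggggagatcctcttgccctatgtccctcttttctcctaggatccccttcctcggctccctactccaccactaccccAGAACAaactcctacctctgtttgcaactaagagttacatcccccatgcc
In KLK3 the match began 170 bases before the start, and in the second PMEPA1 window 229 bases before it. In the first PMEPA1 window the match lay 22 bases after the start, and in FKBP5 at the start itself.

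Genes that androgens repress went both ways. Of 9 measured, 3 were higher and 1 lower by at least 2-fold, against 1.07% and 0.804% of all genes. UGT2B17, which attaches glucuronic acid to androgens and so inactivates them, went from −0.35 on the parental array to 1.34 on the AbiR array, 3.23-fold higher by 1 probe set. The chemokine receptor gene ACKR3 was higher by 1.93 on average, but its 3 probe sets gave 3.71, 2.16 and −0.09. CAMK2N1, an inhibitor of the calcium/calmodulin kinase CaMKII, was at 1.24, with 3 probe sets from 0.84 to 1.67. The oxidoreductase gene HSD17B6 was at −1.01.

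Cofactors of the receptor were read as 26 measured pioneer factors, coactivators and corepressors. At least 2-fold higher or lower were 0 of them, which is near the shares of 1.07% and 0.804% over all genes and says nothing particular to the cofactors. Values ran from −0.47 for the coactivator NCOA1 to 0.44 for the corepressor TLE1. The pioneer factors FOXA1, HOXB13 and GATA2 were at 0.13, 0.17 and 0.23, and the methyltransferase gene EZH2 at −0.11. The glucocorticoid receptor gene NR3C1, whose product can bind the same DNA hexamer, was at 0.09, with 5 probe sets between 0.00 and 0.21. NR3C2, the mineralocorticoid receptor, was 2.27-fold lower by 1 probe set, from 0.94 on the parental array to −0.24 on the AbiR array. Of the 13 measured glucocorticoid targets 2 were at least 2-fold lower, FKBP5 and ZBTB16, which androgens also induce. The other 11 included SGK1.

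Steroid enzymes included a few large differences. Among 49 measured genes of steroid synthesis and inactivation, 1 was at least 2-fold higher (1.07% of all genes) and 3 were at least 2-fold lower (0.804% of all genes). CYP17A1, the enzyme that abiraterone blocks, had a value of −0.10 with both probe sets below 0, within the range of the spiked controls. CYP11A1, which cleaves the cholesterol side chain in the first step of the pathway, went from 1.10 on the parental array to 0.00 on the AbiR array. HSD3B1 was at 0.09 and its 2 probe sets disagreed in sign, at −0.26 and 0.43. The 5-alpha reductase genes SRD5A1 and SRD5A2 were at 0.15 and 0.08, and AKR1C3, which makes testosterone from androstenedione, at 0.01. Of the conjugating enzymes, UGT2B28 was 3.41-fold lower, from 1.78 to 0.01, while its relative UGT2B17 was higher and UGT2B15 was at −0.07. UGT2B genes are close relatives, so their probe sets may share signal. SULT2B1, a sulfotransferase of sterols, was at 0.89 and HSD17B14 at 0.62.

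In sterol synthesis and control, 3 of 30 measured genes were higher and 0 lower by at least 2-fold, against 1.07% and 0.804% of all genes. ABCG1, which exports cholesterol, went from −0.92 on the parental array to 0.74 on the AbiR array, 3.16-fold higher with 4 probe sets between 1.06 and 2.44. TM7SF2, a sterol reductase, was at 1.42 and INSIG2, which retains the sterol sensor in the endoplasmic reticulum, at 1.04. Each of the last pair was read by 1 probe set. The medians of the androgen-repressed, cofactor, glucocorticoid, steroid enzyme and sterol lists were 0.04, 0.07, 0.03, 0.03 and 0.02, all within the SD of the spiked controls, and each changed sign when the arrays were centred on the hybridization controls.

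Of 41 measured fatty acid genes 4 were at least 2-fold lower and 0 higher, against 0.804% and 1.07% of all genes. ACADL, the long-chain acyl-CoA dehydrogenase of mitochondrial beta-oxidation, went from 4.27 on the parental array to 0.00 on the AbiR array, 19.4-fold lower, and its 2 probe sets gave −4.30 and −4.25. The elongase ELOVL2 was 2.72-fold lower and ACOX2, a peroxisomal oxidase of branched acyl chains, 3.38-fold lower. ELOVL7, on the androgen-induced list as well, was the remaining gene. The list median was 0.09.

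Prostanoid and phospholipase genes gave 1 of the highest and 1 of the lowest values. PTGFR, the receptor of prostaglandin F2-alpha, went from 5.09 on the parental array to −0.18 on the AbiR array, 38.7-fold lower, with probe sets at −5.62 and −4.92. PLA2G2A, a secreted phospholipase A2, went from −3.98 to 0.50, 22.3-fold higher by 1 probe set, and the lipoprotein-associated phospholipase gene PLA2G7 was at −1.04. All 8 prostanoid receptor genes were below 0, against 52.4% of all genes, and PTGFR was the only 1 at least 2-fold lower. The median of the 8, −0.10, and their highest value, −0.06, were no larger in size than the SD of the spiked controls.

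Among genes read by 2 or more probe sets that all pointed one way, the lowest was ZNF385B, which encodes a zinc finger protein. It stood at 4.55 on the parental array and −1.11 on the AbiR array, 50.5-fold lower, with probe sets at −6.45, −5.89 and −4.64. PRUNE2 followed, from 4.04 to −1.30 (40.4-fold lower), with probe sets at −6.17, −6.15 and −3.69. PCA3, a prostate-specific non-coding RNA whose gene overlaps PRUNE2 on the opposite strand, had a value of 0.01. DPP4, a cell-surface peptidase, went from 2.36 to −0.96 (9.98-fold lower). ADAMTS1, a secreted metalloprotease, went from 2.57 to −0.54 (8.62-fold lower). PHLDA1 was 6.90-fold lower on average, but its 6 probe sets ranged from −5.21 to −0.46. ASRGL1, an asparaginase, was 6.76-fold lower and TFPI, an inhibitor of tissue factor, 5.78-fold lower.

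On the positive side IGFBP3, the insulin-like growth factor binding protein, stood at −3.72 on the parental array and 0.87 on the AbiR array, 24.0-fold higher, with probe sets at 4.40 and 4.77. ATP1B1, the beta subunit of the sodium pump, went from −2.01 to 1.72 (13.3-fold higher). WNT5A, a ligand of non-canonical Wnt signalling, went from −1.30 to 1.82 (8.74-fold higher). DENND1B, an exchange factor of RAB GTPases, was read by 6 probe sets that were all higher, by 2.36 to 4.73, for an 8.44-fold higher mean. SEMA3C, a secreted semaphorin, was 7.17-fold higher and PREX1, an exchange factor of RAC, 6.11-fold higher. The transcription factor SOX9 was 5.92-fold higher, the sodium pump regulator FXYD5 5.19-fold, the Wnt secretion carrier WLS 4.45-fold and the receptor adaptor GRB10 4.09-fold. LMO4, APCDD1, GASK1B and TNFSF15 had differences of 2.02, 1.99, 1.94 and 1.94.

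**Figure D2:**
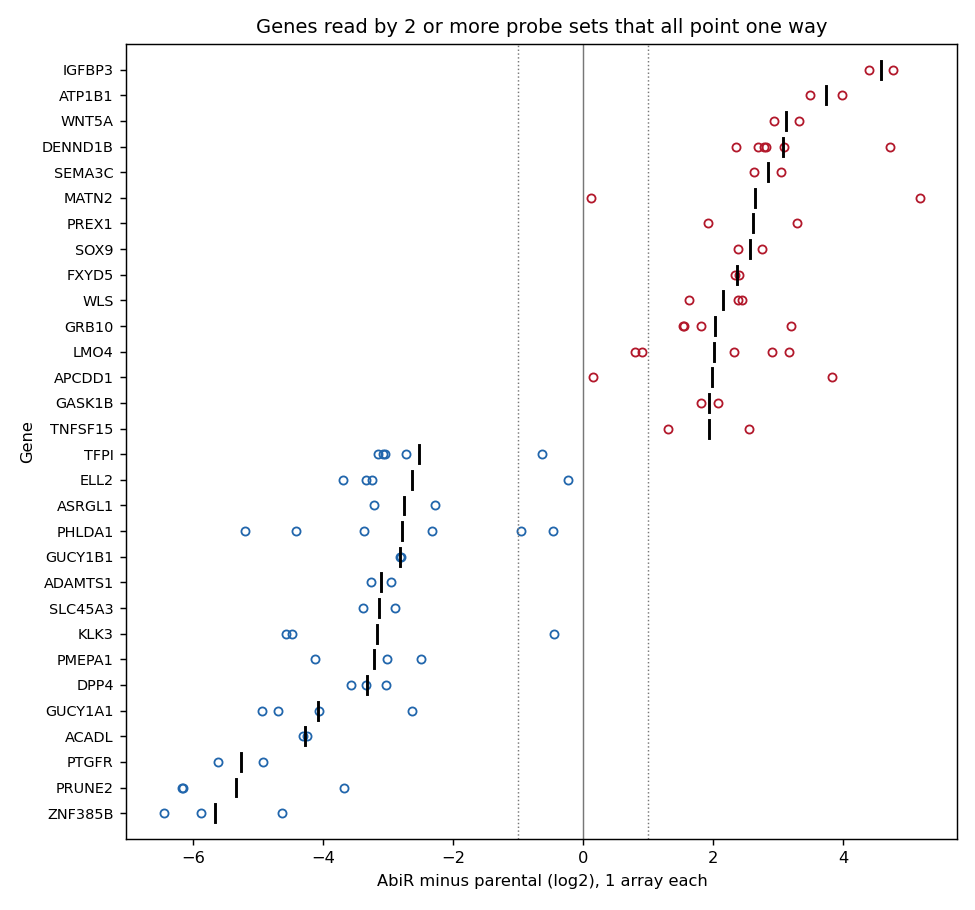
Circles are single probe sets placed by their log2 difference, AbiR minus parental (x axis, 1 array each), for the 15 highest and 15 lowest genes read by 2 or more probe sets that all point one way (y axis), and black ticks are gene means. Dotted lines mark 2-fold. ZNF385B has the lowest mean, −5.66, IGFBP3 the highest, 4.59, and MATN2, with probe sets at 0.12 and 5.18, the widest gap among the genes higher in AbiR.

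Genes read by 1 probe set gave differences as large, without a second reading. Lowest after ELOVL7 was ST6GALNAC1, a sialyltransferase of mucin-type glycans, from 4.23 on the parental array to 0.37 on the AbiR array (14.5-fold lower). AADAT, an aminotransferase of the kynurenine and lysine pathways, was 10.1-fold lower and the antisense RNA HECW2-AS1 8.49-fold lower. RND3 was 8.06-fold lower, the kinase gene STK39 5.49-fold and the chaperone gene CLGN 5.48-fold. The highest were LRRN1, a leucine-rich-repeat membrane protein of neurons (−4.98 to −0.43, 23.4-fold higher), and PDZRN4 (−0.06 to 4.49, also 23.4-fold). The cytokine TSLP went from −2.24 to 1.74 (15.8-fold higher) and the neurotensin gene NTS from −0.98 to 2.54 (11.5-fold). TENM2, a teneurin, was 11.4-fold higher, the cadherin CDH18 10.2-fold, the protease inhibitor SERPINI1 9.84-fold, the tubulin TUBA1A 9.80-fold and the transcription factor SOX8 7.87-fold.

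Lineage markers were read by lists for prostate and other cell types. Of 22 luminal prostate markers 7 were at least 2-fold lower, against 0.804% of all genes, and 0 at least 2-fold higher. The list had 10 genes above 0, up to 0.85, and a median of −0.11. Of the 7 lower genes, KLK2, KLK3, AZGP1 and SLC45A3 are also androgen-induced. The other 3 were PRUNE2, DPP4 and MSMB, a secreted protein of prostate fluid, which was 4.01-fold lower with probe sets at −2.04 and −1.97. None of the 9 basal, 12 stromal, 7 endothelial and 8 immune markers was at least 2-fold higher or lower, a count near the 1.07% and 0.804% of all genes, and their values ran from −0.40 for the basal keratin KRT14 to 0.44 for the stromal collagen COL1A1. In the neuroendocrine list of 31 genes, 2 were at least 2-fold higher (1.07% of all genes) and 1 was at least 2-fold lower (0.804% of all genes). The neuron-specific enolase gene ENO2, also a glycolysis gene, went from −2.80 on the parental array to 0.06 on the AbiR array (7.22-fold higher). The granule and synapse genes CHGA, CHGB and SYP were at −0.26, −0.21 and −0.21, and SYT4 at −0.79. SOX4 was at −1.09 with 6 probe sets from −2.05 to 0.20.

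Adhesion molecules known from neurons included several large differences among 48 measured genes, of which 4 were at least 2-fold higher and 1 was at least 2-fold lower. Besides LRRN1 and TENM2, AMIGO2 went from −2.86 on the parental array to −0.08 on the AbiR array (6.86-fold higher), and NLGN1, a neuroligin, was at 1.81. TENM1 went the other way, at −1.41, with its 2 probe sets at −2.44 and −0.39. The list median was 0.03, which also changed sign under that centring.

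Of 19 measured genes of the insulin-like growth factor axis, 1 was at least 2-fold higher and 2 were at least 2-fold lower. The shares over all genes were 1.07% and 0.804%. The other 16 were under 2-fold. The list median was 0.07, and it changed sign when the arrays were centred on the hybridization controls. IGF1, a ligand, went from 2.28 on the parental array to 0.40 on the AbiR array (3.70-fold lower), with 5 probe sets from −3.13 to −0.14. The receptor IGF1R was 3.63-fold lower, with probe sets at −3.45, −3.15, −1.60, −1.26 and 0.17. IGFBP3, described above, was the single gene of the axis at least 2-fold higher. GRB10, an adaptor of the insulin and IGF1 receptors, had 4 probe sets between 1.54 and 3.21.

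Feedback genes of growth factor signalling went in both directions. Of 20 measured ERK feedback genes 3 were at least 2-fold lower and 1 higher, against 0.804% and 1.07% of all genes. DUSP4, a nuclear phosphatase of ERK, went from 1.70 on the parental array to 0.06 on the AbiR array (3.11-fold lower), while its relative DUSP5 went from −2.22 to 0.28 (5.67-fold higher, 1 probe set). SPRY1, an inhibitor of receptor tyrosine kinase signalling, was at −1.38. INPP4B, a phosphatase of phosphoinositides, was at −1.33 on average, but its 4 probe sets ranged from −3.31 to 0.06. In the TGF-beta and BMP list of 52 genes, the BMP receptor BMPR1B was 4.24-fold lower with 3 probe sets from −4.35 to −0.86, and the pseudoreceptor BAMBI was 2.55-fold higher. In the Wnt list of 63 genes, WNT5A and the receptor FZD7, at 1.16, were at least 2-fold higher and 0 were at least 2-fold lower.

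Both subunits of the nitric oxide receptor soluble guanylate cyclase were lower, the only 2 of 51 measured genes of cyclic nucleotide signalling to differ at least 2-fold. GUCY1A1 went from 2.97 on the parental array to −1.11 on the AbiR array (17-fold lower), with probe sets at −4.94, −4.70, −4.06 and −2.64. GUCY1B1 went from 1.54 to −1.28 (7.02-fold lower), with probe sets at −2.82 and −2.81. Phosphodiesterases and kinases of the list had 0 genes at least 2-fold higher or lower, near the 1.07% and 0.804% of all genes. Enzymes of glycan synthesis gave 3 of 41 genes at least 2-fold lower, which were ST6GALNAC1, the GalNAc transferase GALNT7 (5.27-fold lower) and the branching enzyme GCNT1 (5.06-fold lower), and 0 at least 2-fold higher.

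Interferon-stimulated genes were higher in part. Of 39 measured 6 were higher and 0 lower by at least 2-fold, against 1.07% and 0.804% of all genes, with a median of 0.23. IFIT1 went from −1.95 on the parental array to −0.20 on the AbiR array (3.38-fold higher), OASL from −0.99 to 0.40 (2.63-fold higher), and IFIT2, IFI6, IFIT3 and RSAD2 were at 1.15, 1.08, 1.02 and 1.01. Other members sat near or below 0, such as MX1 at −0.07, OAS2 at −0.01 and the ubiquitin ligase HERC5 at −0.89. Antigen presentation genes had a median of 0.31 over 26 genes, with 2 at least 2-fold higher. These were the immunoproteasome subunit PSMB9 (3.06-fold) and the proteasome activator PSME1 (2.02-fold), each by 1 probe set. HLA-B and HLA-C were at 0.71 and 0.59 and the peptide transporter TAP1 at 0.88. The HLA genes are near-identical in sequence, so their probe sets may share signal. Cytokine ligands, 31 in number, had 4 at least 2-fold higher, namely TSLP, TNFSF15, the chemokine CCL20 (1.49) and LIF (1.08), and 0 lower.

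The cell cycle, unfolded protein response, proteasome and chaperone lists had small negative medians. Of 92 cell cycle genes 73 were below 0, against 52.4% of all genes, with a median of −0.20, but GMNN, the inhibitor of replication licensing, was the only 1 at least 2-fold lower, and only just, from 0.72 on the parental array to −0.28 on the AbiR array. Within the list, 28 of 31 DNA replication genes were below 0, among them PRIM1 at −0.52, RFC3 at −0.51 and MCM3 at −0.39. Mitotic genes included MAD2L1 at −0.96, CCNA2 at −0.93 and PLK4 at −0.89, while the proliferation marker MKI67 was at 0.16. The cell cycle inhibitor CDKN1A was at 0.51. The unfolded protein response had 29 of 35 genes below 0 (median −0.17) and the proteasome 30 of 35 (median −0.12). At least 2-fold higher or lower were 0 genes in either, near the 1.07% and 0.804% of all genes. The proteasome median was close to the SD of 0.10 of the spiked controls. The ubiquitin ligase STUB1 was at −0.04 with 3 probe sets between −0.05 and −0.03, HSP90AA1 at −0.09 and MDM2 at 0.00. Of 69 chaperone genes, FKBP5 and HSPA4L, an HSP110 relative at −1.06, were at least 2-fold lower. The autophagy and lysosome list went the other way, with a median of 0.18, 27 of 37 genes above 0 and 10 below. Its 1 gene at least 2-fold higher was OPTN, an autophagy receptor, 3.68-fold higher with probe sets at 1.73 and 2.02.

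AbiR stood apart from both other arrays for a small set of genes. The AbiR value was at least 2-fold above both the parental and the MDVR value for 55 genes (0.278%) and at least 2-fold below both for 24 genes (0.121%). The gene farthest above was PDZRN4, at 4.49 on the AbiR array, −0.06 on the parental and −0.11 on the MDVR array. SOX8 stood at 1.76, −1.22 and −1.25 in that order, and FGF13, an intracellular member of its growth factor family, at 1.33, −1.35 and −1.33. DENND1B, the scavenger receptor COLEC12 and the taste G protein subunit GNAT3 also had MDVR values within 2-fold of parental, whereas TSLP and CDH18 were also higher in MDVR than in parental cells, by 1.64 and 1.14. Farthest below was RND3, at −1.87 on the AbiR array, 1.14 on the parental and 2.71 on the MDVR array. PRUNE2 stood at −1.30, 4.04 and 1.30, and AZGP1 at −1.26, 2.27 and 1.26, so that the MDVR value lay between. GUCY1A1, GUCY1B1, ZNF385B, DPP4 and the non-coding LOC105379362 also had their MDVR value between the other 2. AKR1C3 was an opposite case, with −0.49 on the AbiR array and −0.50 on the parental array against 3.52 on the MDVR array.

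**Figure D3:**
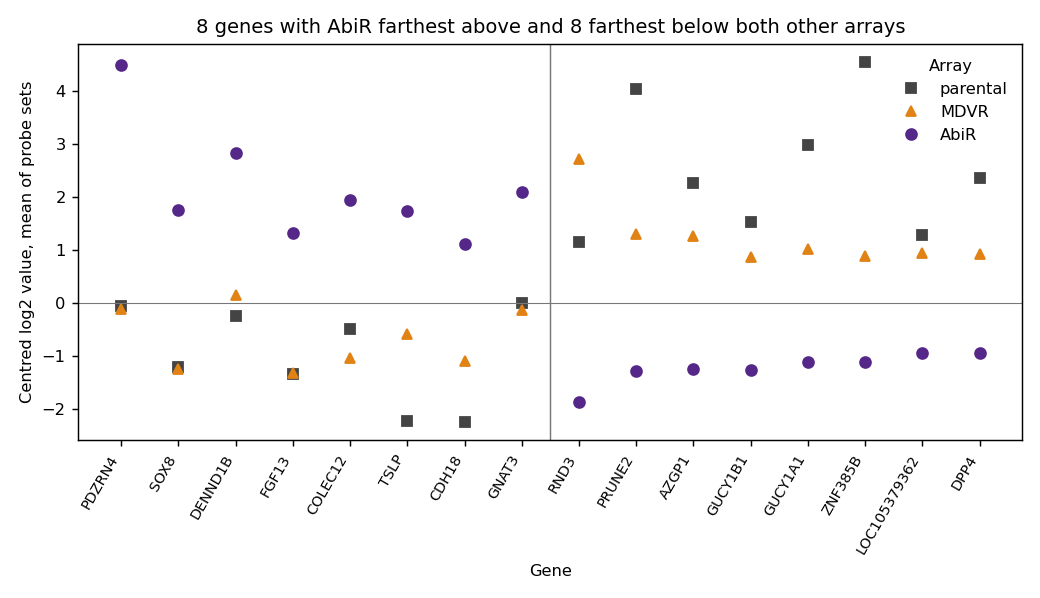
Centred log2 values (y axis, mean of a gene's probe sets) on the parental (squares), MDVR (triangles) and AbiR (circles) arrays, 1 array each, for the 8 genes with AbiR farthest above and the 8 farthest below both other arrays (x axis). PDZRN4 stands at 4.49 in AbiR, −0.06 in parental and −0.11 in MDVR, and RND3 at −1.87, 1.14 and 2.71.

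Some of these genes were neighbours on a chromosome. Of the 78 that could be placed in gene order, 16 lay within 5 measured genes of another, a count made after their values were seen. How many would lie so close among as many genes drawn from all placed genes was not tested. On chromosome 1 the genes DENND1B, C1orf53, LHX9 and NEK7 were consecutive, and their differences were 3.08, 1.89, 1.5 and 1.13 in AbiR against 0.38, 0.10, 0.90 and −0.08 in MDVR minus parental. LHX9 was not among the 16, since its AbiR value lay within 2-fold of its MDVR value. Its 4 probe sets ran from −0.06 to 3.81. The flanking genes CRB1 and ATP6V1G3 were at −0.03 and 0.12. On chromosome 7 the G protein genes GNAI1 and GNAT3 were at 1.43 and 2.10 and SEMA3C at 2.84, with CD36 between them at 0.35 and HGF beyond at 0.12. HGF, the ligand of the MET receptor, was at 3.87 in MDVR. On chromosome 4 the guanylate cyclase genes GUCY1A1 and GUCY1B1 were adjacent, MAP9 next to them was at −1.33, and NPY2R and ASIC5 on either side were at −0.01 and −0.03. On chromosome 9 GCNT1 and PRUNE2 were adjacent, at −2.34 and −5.34. The other close pairs were PLD1 with NCEH1, RIMS1 with KCNQ5, and NIPSNAP3A with SLC44A1.

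**Figure D4:**
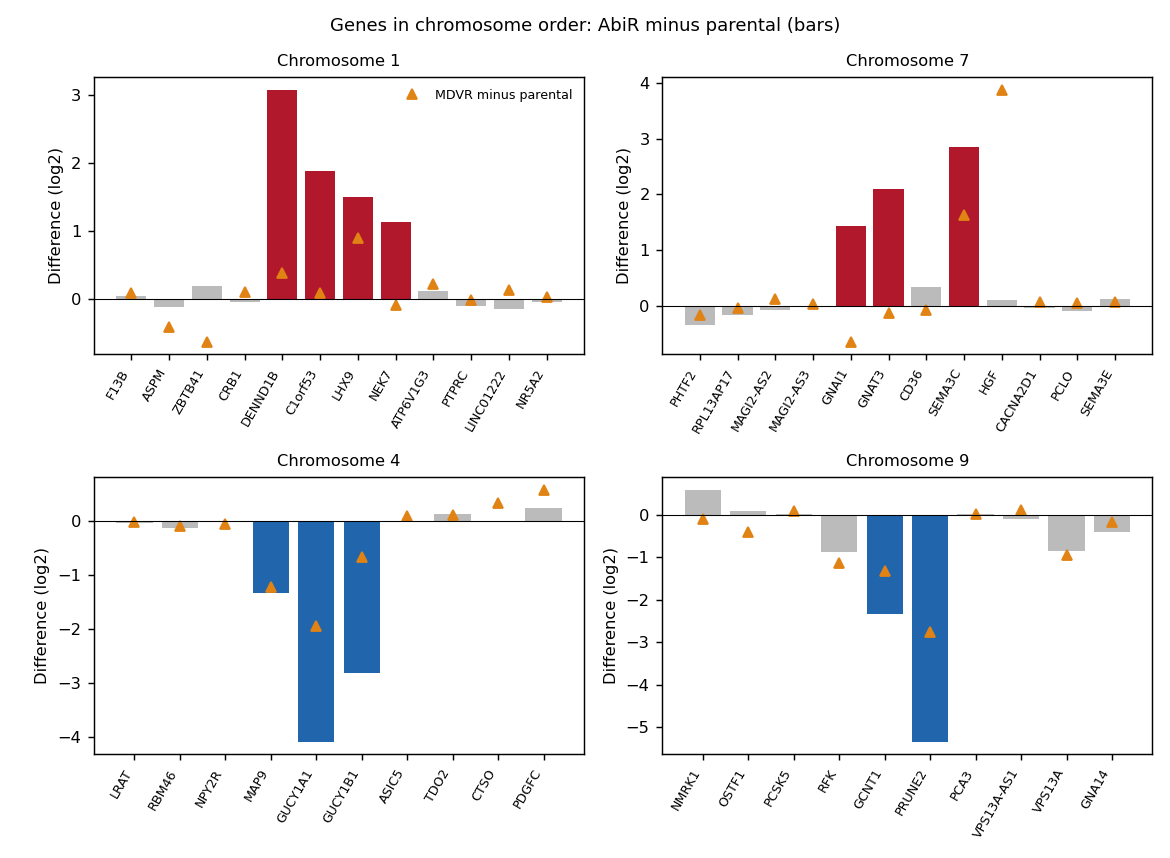
Bars are log2 differences, AbiR minus parental (y axis), of genes in chromosome order (x axis) in 4 stretches that hold neighbouring genes with AbiR apart from both other arrays. Triangles are MDVR minus parental, and coloured bars are at least 2-fold. DENND1B, C1orf53, LHX9 and NEK7 on chromosome 1 have 4 red bars in a row, between flanking genes at −0.03 and 0.12.

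Gene order was also read along whole chromosomes, for 1 to 22 and X. Chromosome 4 had 22 genes at least 2-fold lower and 5 at least 2-fold higher of 793 measured, which is 2.77% lower against 0.804% of all genes. These lay mostly toward the end of the gene order, past its midpoint, where 19 of 397 were at least 2-fold lower (4.79%), 72.3% were below 0 against 52.4% of all genes, and the median was −0.11. With every chromosome split at its midpoint into 46 parts, this was the lowest median, and the same genes had a median of −0.06 in MDVR minus parental. Over all genes the medians were −0.01 in AbiR and 0.04 in MDVR, so that these genes lay about as far below all genes in both. On chromosome 13, 9 of 401 genes were at least 2-fold lower (2.24%) and 1 was at least 2-fold higher. Chromosome X had 18 of 696 genes at least 2-fold higher, 2.59% against 1.07% of all genes, and 5 lower (0.718%).

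In windows of 15 neighbouring genes, the 1st and 99th percentiles of the medians were −0.23 and 0.18. The window farthest from 0 ran from C1orf115 to SUSD4 on chromosome 1, with a median of 0.67, 13 of 15 genes above 0 and 5 at least 2-fold higher. These 5 were AIDA at 1.93, the complement inhibitor SUSD4 at 1.84, the phosphatase DUSP10 at 1.56, BROX at 1.33 and the homeobox gene HLX at 1.30, and the window's median in MDVR minus parental was 0.20. With windows of 25 genes the median dropped to 0.21, and the medians of the 3 windows described next came to −0.31, −0.16 and −0.28. A window from FGF2 to PGRMC2 on chromosome 4 had a median of −0.54, with SPRY1 at −1.38, HSPA4L at −1.06, NUDT6 at −1.04 and the centriole kinase PLK4 at −0.89. NUDT6 and FGF2 overlap on opposite strands, and FGF2 was at 0.08. A further window on chromosome 4, from NAF1 to MSMO1, had a median of −0.43, with TMA16 at −1.15 and NAF1 at −1.02. The window from TPD52 to E2F5 on chromosome 8 had a median of −0.48, with SNX16 at −1.14 and ZBTB10 at −1.03. TPD52 and ZBTB10 are also on the androgen-induced list.

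**Figure D5:**
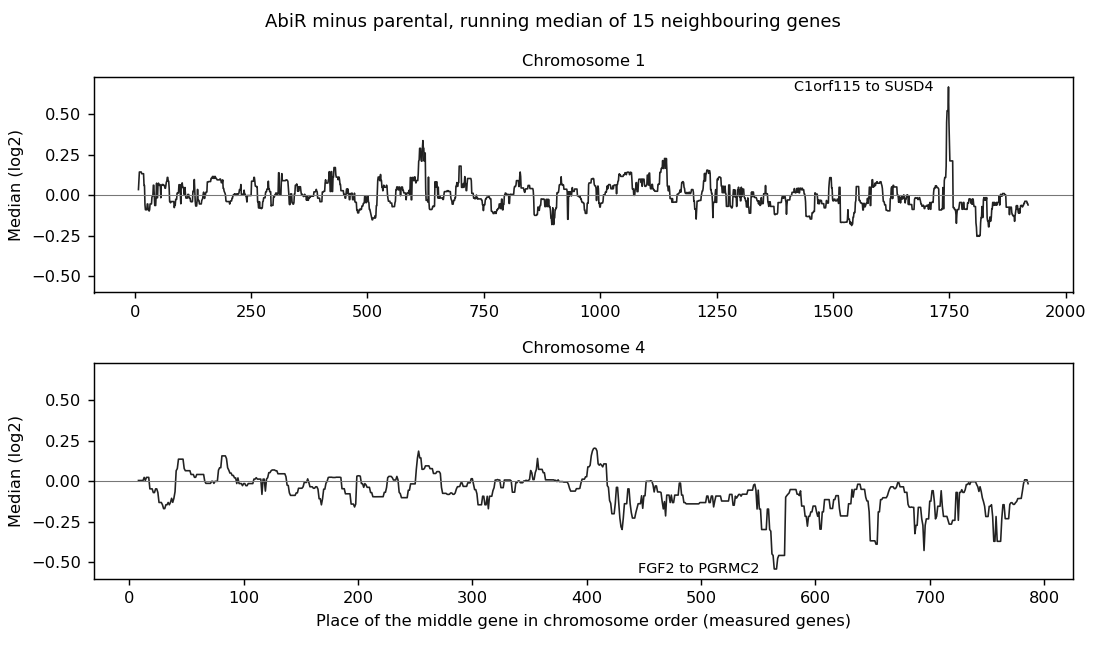
Lines are running medians of the log2 difference, AbiR minus parental (y axis), over 15 neighbouring measured genes along chromosomes 1 and 4 (x axis, place in gene order). The window from C1orf115 to SUSD4 reaches 0.67, the window from FGF2 to PGRMC2 reaches −0.54, and chromosome 4 lies mostly below 0 past its midpoint.

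Probe sets of one gene did not always give the same answer. Of 113 genes with 2 or more probe sets and at least 1 of them at least 4-fold apart between the arrays, 36 had another probe set within the range of the spiked controls. In MATN2, a matrix protein, the 2 probe sets gave 5.18 and 0.12. THBS1, which encodes thrombospondin, was at −4.65 and −2.57 by 2 probe sets and between −0.40 and −0.03 by the other 5. PLPPR1 ran from −0.14 to 4.55, LHX9 from −0.06 to 3.81, APCDD1 from 0.15 to 3.82, PLD1 from −0.10 to 3.40, DSC2 from −3.23 to 0.13 and MYLK from −0.13 to 3.15. RALGAPA2 was the only gene with probe sets at least 2-fold both ways, at −1.22 and 1.19, and its mean was 0.02. The cause of these disagreements was not tested.

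Probe sets annotated to several genes, 1801 in number, were kept apart since their signal cannot be given to 1 of those genes. The lowest, at −4.12, was annotated to the protocadherin gene PCDH20 with LINC02339. The next 3, at −3.09, −2.75 and −2.59, were annotated jointly to TARP, TRGV9 and TRGC2, a T cell receptor gamma locus from which prostate cells are known to make the TARP protein. A probe set of AZGP1 with its pseudogene AZGP1P1 gave −2.54, beside −3.53 for AZGP1 alone and −1.69 for AZGP1P1 alone. The 2 probe sets annotated to TARP alone gave −0.07 and −0.03. The highest were annotated to the long non-coding RNA NEAT1 with MIR612, at 2.26 and 2.00, to GUSBP17 with GUSBP3, at 2.25, and to the ST7 locus, at 2.03.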

How the data were processed

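Groups followed the sample labels, with 1 array for each of the 3 lines. The authors deposited log2 values for 54675 probe sets. RMA is the tool named in the submitters' processing notes, and its version is not given in the sources used here. The deposited log2 values had in addition been centred on each probe set: all of them (100%, tolerance 2e-06; 50.3% with columns shuffled) fit a subtracted median over 4 arrays, of which 1 is not analysed here.

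Probe sets were named by the platform annotation and updated by gene ID to RefSeq (GRCh38.p14, used for names, gene order and promoters), which matched 99.9% of those with 1 symbol. AbiR minus parental was averaged over the probe sets of a gene, with no floor on low signals. There was no replicate, test or p-value, and the number of arrays limits the precision. The threshold was 2-fold. The difference and count were tested on simulated data, with independent noise at the SD of the spiked controls. That is less than the SD of 0.28 between probe sets of a gene, so the test checks the calculation and gives no error rate. Python 3.11, numpy and pandas were used.

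Named genes were the 15 highest and 15 lowest read by several probe sets of 1 direction, the 10 and 10 read by 1 probe set, the 8 and 8 with AbiR farthest above and below both other arrays, up to 12 with discordant probe sets, up to 6 and 6 per list at least 2-fold apart, members of 4 runs of 15 neighbours, 3 and 3 probe sets of several genes, and genes of drug and steroid pathways fixed by name. Other genes given as examples were chosen after their values were seen. Over the 49 lists, 1862 different genes were listed and 1713 measured, and some genes were on several lists. The members, lists and rules were chosen with earlier results of these data known. Genes without a probe set of their own are not analysed here. Alternatives covered the scaling of the arrays, the choice of probe sets, the threshold and the window.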

Additional observations from a re-analysis of the deposited data

Results flagged for a closer look

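Probe sets without a gene symbol here, 11721 besides the controls, entered no gene or list. In AbiR 156 (1.33%) were higher and 32 (0.273%) lower by at least 2-fold, with values from −3.49 to 4.37 and a median of 0.01. Which transcripts they read was not tested.

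In 7 genes the AbiR and MDVR arrays differed at least 2-fold from parental in opposite directions, with 1 array each, so that the difference was not tested. RND3 was at −3.01 in AbiR and 1.57 in MDVR. NR2F1, an orphan nuclear receptor, was at 1.75 and −1.54, and the androgen-inactivating UGT2B17 at 1.69 and −1.49. LUZP2 was at 1.72 and −1.20, the thyroid hormone deiodinase DIO1 at 1.53 and −1.06, the potassium channel KCNQ5 at 1.17 and −1.41, and LOC105371703 at −1.30 and 1.17. All but KCNQ5 were read by 1 probe set.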

How the results depend on the processing

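The counts of 212 genes at least 2-fold higher and 159 lower became 656 and 498 at 1.5-fold, 73 and 61 at 3-fold, and 36 and 40 when every one of 2 or more probe sets had to be at least 2-fold. With the probe set of smallest difference taken for a gene, 148 were higher and 101 lower. Centring arrays on their medians gave 214 and 156, centring on the spiked controls 201 and 163, and centring on the hybridization controls alone 173 and 186, an alternative chosen after seeing the data, where the higher share went from 57.1% to 48.2%. The medians of 24 of 49 lists, none beyond the SD of the spiked controls, changed sign under at least 1 of these scalings. That of androgen-induced genes kept its sign throughout, at −0.70 on the hybridization controls and −0.19 with the smallest difference.

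The smallest difference reversed the sign of KLK2 (0.11, also with suffixes _s, _x and _a left out), IGF1R (0.17), INPP4B (0.057), DSC2 (0.13), SOX4 (0.051), ACKR3 (−0.087), PLPPR1 (−0.14), LHX9 (−0.063), PLD1 (−0.10), MYLK (−0.13) and FN1 (−0.012), by construction. Windows of 25 genes moved the medians of the 4 runs to 0.21, −0.31, −0.28 and −0.16. No paired analysis was possible because each group has 1 array. Centred values without levels keep weak and strong signals from being told apart.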

Other observations

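Genes were also read in 67 families by symbol. Among 316 solute carrier genes 6 were higher and 4 lower by at least 2-fold, near the 1.07% and 0.804% of all genes, among the latter the amino acid transporters SLC43A1 (−1.91) and SLC7A5 (−1.27) and among the former the choline transporter relatives SLC44A3 (1.77) and SLC44A1 (1.05). In 12 measured genes of the BEX and TCEAL families, which are X-linked, 3 were at least 2-fold higher, BEX5 at 2.19, TCEAL2 at 1.63 and BEX1 at 1.04. Histone genes had a median of −0.22 over 59 genes with 4 at least 2-fold lower, and mitochondrial ribosomal proteins and aminoacyl-tRNA synthetases had medians of −0.16 over 77 genes and −0.22 over 15 genes, with 0 at least 2-fold apart.

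In some families single members differed in opposite directions, while most members were under 2-fold. Under 2-fold were 18 of 20 regulators of G-protein signalling, 66 of 69 cadherins and protocadherins and 44 of 47 cytochromes P450. Of regulators of G-protein signalling, RGS17 was at 1.6 and RGS2 at −2.17. The cadherin CDH12 was at 2.21, beside CDH18, while the protocadherin PCDH7 was at −1.55. Among cytochromes P450, CYP4B1 was at 1.32 and CYP4F8 at −1.95. In some other families only a single member was at least 2-fold apart, for example the forkhead gene FOXQ1 at 2.87 and the tetraspanin TSPAN7 at 2.74. The families in which 0 genes were at least 2-fold higher or lower numbered 32 of 67 and held 859 measured genes. They were picked by that count, so it is no result about them. The shares over all genes were 1.07% and 0.804%.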
